A study of Mus musculus with 4 samples.

Results

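The inflammasome genes examined here were Casp1, Casp4, Casp12, Il18, Il1b, Nlrp3, Pycard, Gsdmd, Aim2 and Nlrc4, taken as every probe set that the platform annotation assigns to 1 of these 10 symbols. Of the 10 genes, 9 had a probe set, out of 18193 genes measured on the array, and they held 12 probe sets. Nlrc4 was not analysed here. The set was chosen by the measured signals of Casp1 and Il18, both lower in the silenced clones, and filled up with their partners. The difference between silenced and control clones is therefore given for these genes as a description. Their calls in the fit over the whole array are printed for completeness, and support nothing.

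RNA came from J558, a BALB/c (H-2Ld) mouse plasmacytoma line, and was measured on Affymetrix Mouse 430 2.0 arrays. The 2 AID-silenced clones carried a pSilencer vector with a sequence against AID, the activation-induced cytidine deaminase that starts antibody gene hypermutation and class switching. The 2 control clones carried the same kind of vector without that sequence. All 4 clones, controls included, were also transfected with a neomycin resistance gene and selected in G418. Every clone was hybridised to 1 array, and the labels join the clones into 2 pairs of a silenced and a control clone. Each sample is thus a single selected clone, so the effect of silencing and differences between individual clones cannot be told apart within a pair. The agreement of 2 pairs is the only replication, and the labels do not say what joins 2 clones as a pair.

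An inflammasome is a cytosolic platform, best studied in macrophages, that turns the detection of microbial or damage signals into proteolysis. Sensors such as Nlrp3, Aim2 and Nlrc4 recruit the adaptor ASC, the product of Pycard, and ASC gathers pro-caspase-1, which then cleaves itself. Active caspase-1 matures interleukin 1 beta and interleukin 18 and cuts gasdermin D, whose amino-terminal part forms pores in the plasma membrane. Caspase-11, the product of mouse Casp4, cuts gasdermin D directly after binding lipopolysaccharide. The arrays measure RNA only, and processing of these proteins lies outside the data.

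The promoters of 4 members are shown because 2 of these genes, Casp1 and Il18, were lower together, Pycard went the other way, and Casp4, next to Casp1, gave no signal above background. Each window holds the 250 bases before the annotated start, from RefSeq on GRCm38.p6, and capitals mark matches to the motifs named after the sequences. The Casp1 window is chr9:5298267-5298516, that of Casp4 chr9:5308599-5308848 (the first of 2 starts), and that of Il18 chr9:50554450-50554699, all on the plus strand. The Pycard window is chr7:127993868-127994117 on the minus strand.
Casp1: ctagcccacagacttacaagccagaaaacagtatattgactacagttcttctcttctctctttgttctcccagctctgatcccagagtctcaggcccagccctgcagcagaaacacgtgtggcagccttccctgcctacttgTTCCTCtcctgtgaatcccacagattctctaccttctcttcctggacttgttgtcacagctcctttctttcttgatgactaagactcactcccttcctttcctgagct
Casp4: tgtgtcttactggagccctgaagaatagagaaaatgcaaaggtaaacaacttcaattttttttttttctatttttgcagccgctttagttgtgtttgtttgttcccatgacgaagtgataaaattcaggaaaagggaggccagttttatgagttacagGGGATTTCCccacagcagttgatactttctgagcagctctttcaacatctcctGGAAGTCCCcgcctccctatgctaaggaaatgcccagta
Il18: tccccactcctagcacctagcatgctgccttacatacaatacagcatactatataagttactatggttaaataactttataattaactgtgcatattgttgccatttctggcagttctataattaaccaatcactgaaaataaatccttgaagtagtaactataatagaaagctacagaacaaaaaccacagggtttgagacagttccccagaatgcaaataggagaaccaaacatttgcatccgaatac
Pycard: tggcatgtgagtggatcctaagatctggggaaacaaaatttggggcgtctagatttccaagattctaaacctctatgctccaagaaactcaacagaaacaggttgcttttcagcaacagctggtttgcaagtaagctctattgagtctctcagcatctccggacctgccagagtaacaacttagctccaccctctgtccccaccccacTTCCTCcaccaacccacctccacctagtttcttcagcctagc

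The motifs searched on both strands were GAGGAA (PU.1), GGGNNTTCC (NF-kB), GAAANNGAA (IRF), TTCNNNGAA (GAS) and TGANTCA (AP-1). GAGGAA matched once in the Casp1 window and once in the Pycard window, both times on the strand opposite to the one printed, and 23.3% of 32851 promoter windows of this length hold it. The Casp4 window held 2 matches to GGGNNTTCC, 1 on each strand, a pattern present in 4.98% of windows. The Il18 window held none of the 5 motifs. GAAANNGAA, in 7.13% of windows, TTCNNNGAA, in 7.02%, and TGANTCA, in 6.75%, matched in none of the 4 windows. The Casp1 and Il18 windows held 1 CpG each, Pycard 2 and Casp4 3, against a median of 6 over all windows. These matches describe the sequence only, and the arrays hold no measure of factor binding.

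Signals are MAS5 intensities on a linear scale. As a reference for background, the highest signal among 27 probe sets for Bacillus subtilis genes was 41.9 and 38.8 on the control arrays of pairs 1 and 2 and 27.3 and 39.9 on the silenced arrays. Differences are given as AID-silenced minus control on log2(signal + 16), which understates the change of dim genes. Of the 12 member probe sets, 5 had a mean signal above the limit of 49.4 for testing, 1 each for Casp1, Il18, Nlrp3, Pycard and Aim2. Those of Casp1 and Il18 passed through their controls. The other 7, for Casp4, Casp12, Il1b and Gsdmd and the remaining probe sets of Pycard, did not pass. The plot of member signals shows all 12.

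**Figure D1:**
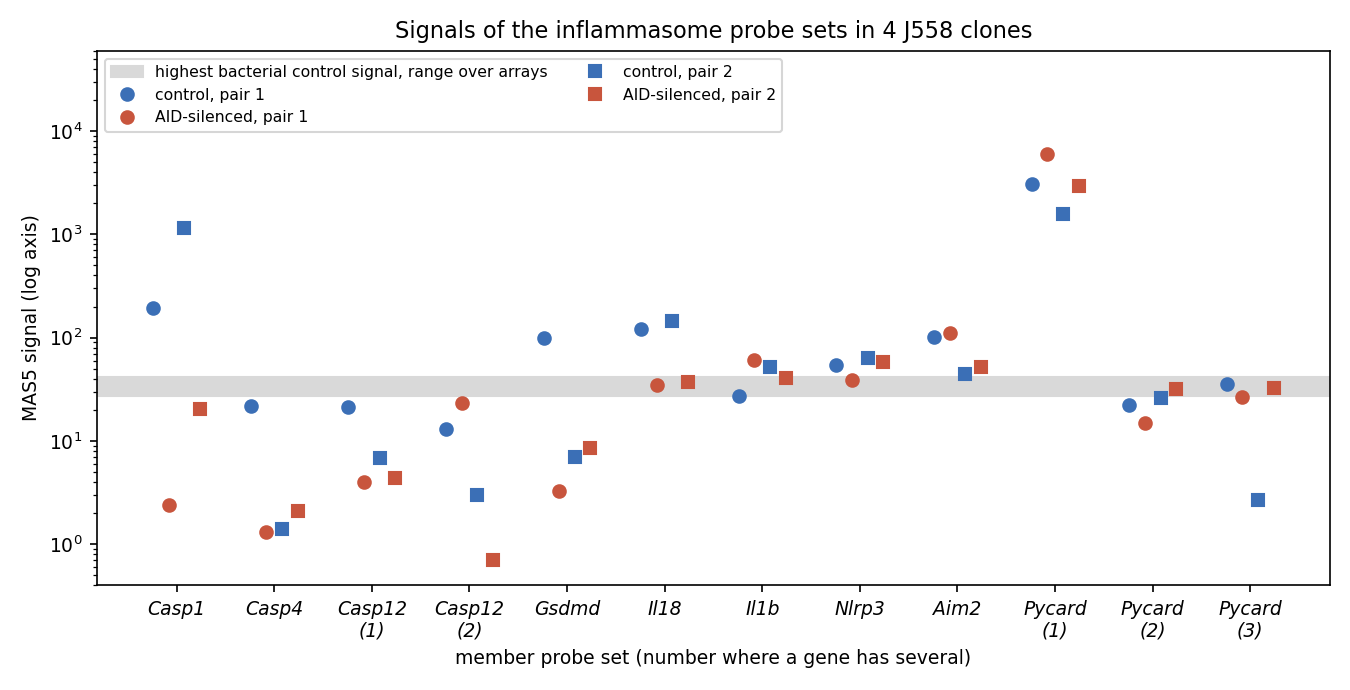
MAS5 signal (log axis) of each of the 12 member probe sets in the control (blue) and AID-silenced (red) clones of pair 1 (circles) and pair 2 (squares), 1 array per point. The grey band spans the highest Bacillus control signals, 27.3 to 41.9. Casp1 and Il18 lie above it in both controls, and the first Pycard probe set lies far above it in all 4 clones.

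The inflammatory caspases were represented by Casp1 alone. Casp1, the effector protease of the pathway, had a signal of 193 in the control clone and 2.4 in the silenced clone of pair 1, and 1151 and 20.5 in pair 2. Both controls were high and both silenced clones lay below background, so the groups did not overlap. How many probe sets of the whole array keep the groups apart was not counted, here or for Il18. The signal in the silenced clones gives only an upper limit, and in RNA from a whole culture fewer expressing cells and less RNA per cell cannot be told apart. Against the highest Bacillus signal of those arrays, Casp1 was at least 7.08-fold lower in the silenced clone of pair 1 and at least 28.8-fold lower in that of pair 2. These limits hold for the references of 27.3 and 39.9. They would be smaller against the 41.9 reached on the control array of pair 1. On the log2 scale the differences were −3.51 and −5.00, with a mean of −4.25 ± 0.81 (SE from limma, n = 2 per group).

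Between the controls Casp1 differed by 2.48 log2 units, with the higher signal in pair 2. Casp4, which encodes the lipopolysaccharide-binding caspase-11, had signals of 21.8 and 1.4 in the controls and 1.3 and 2.1 in the silenced clones of pairs 1 and 2. Casp12, a relative of Casp4 that lies beside it, had signals of 21.5 and 6.8 against 4.0 and 4.4 at its first probe set and 13.0 and 3.0 against 23.2 and 0.7 at its second. Every one of these 12 signals lay below the background reference of its array. Neither gene was detectable at this precision in any clone.

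Of the cytokine substrates, Il18 was lower in the silenced clones, like Casp1. Il18 had signals of 122 and 145 in the controls of pairs 1 and 2 and 34.7 and 37.3 in the silenced clones. The 2 values within each group were close together and the groups did not overlap. In pair 2 the signal was at least 3.64-fold lower in the silenced clone, where it was under the 39.9 of its array's background reference. In pair 1 the measured signals differed 3.52-fold, but the 34.7 of the silenced clone, although above the 27.3 of its own array, was within the range of the reference over the 4 arrays, so that fold is uncertain. The log2 differences were −1.45 and −1.60, with a mean of −1.52 ± 0.34 (SE, n = 2 per group). Il1b, the gene of the other classical caspase-1 substrate, had signals of 27.2 and 51.7 in the controls and 60.7 and 40.3 in the silenced clones. It was higher in the silenced clone of pair 1, by 0.83, and lower in that of pair 2, by −0.27, all near the background reference.

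Pycard, the gene of the adaptor ASC, was the brightly measured member and went in the other direction. At its first probe set the signals were 3044 in the control and 6031 in the silenced clone of pair 1, and 1576 and 2965 in pair 2. It was higher in the silenced clone of each pair, 1.98-fold and 1.88-fold. The control clone of pair 1 nevertheless exceeded the silenced clone of pair 2, so the groups overlapped. The log2 differences were 0.98 and 0.91, with a mean of 0.94 ± 0.43 (SE, n = 2 per group). With the pair as a block the SE was 0.16 (limma adjusted p = 0.29). Leaving out 1 clone unbalances the pairs, so the difference between pairs then enters the mean. The mean was 0.43 with the silenced clone of pair 1 left out and 0.47 with the control of pair 2 left out. Leaving out the control of pair 1 gave 1.42, and leaving out the silenced clone of pair 2 gave 1.45. Its other probe sets, with signals of 14.9 to 31.6 and 2.7 to 35.7, lay below the background reference on every array and gave no level of the gene.

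The sensors varied little between groups. Nlrp3, which responds to potassium efflux and many other disturbances, had signals of 54.0 and 63.0 in the controls and 38.5 and 58.0 in the silenced clones, for differences of −0.36 and −0.09. The 38.5 was within the range of the background reference over the arrays, so these differences are uncertain. Aim2, a receptor for cytosolic DNA, had signals of 101 and 44.1 in the controls and 112 and 52.4 in the silenced clones, for differences of 0.13 and 0.19. The 44.1 and 52.4 of pair 2 were close to that range. Aim2 separated by pair and not by group, both clones of pair 1 being above both clones of pair 2. The mean differences were −0.23 ± 0.37 for Nlrp3 and 0.16 ± 0.49 for Aim2 (SE, n = 2 per group), each smaller than its error.

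Gsdmd, the pore-forming substrate of caspase-1 and caspase-11, had a signal of 99.1 in the control clone of pair 1 and 3.3, 7.0 and 8.6 in the other clones (AID-silenced pair 1, control pair 2 and AID-silenced pair 2). In pair 1 it was at least 3.63-fold lower in the silenced clone, a log2 difference of −2.58. In pair 2 both clones lay below background, so the pairs cannot be compared. The 1 clone with a Gsdmd signal had the lower Casp1 signal of the 2 controls.

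**Figure D2:**
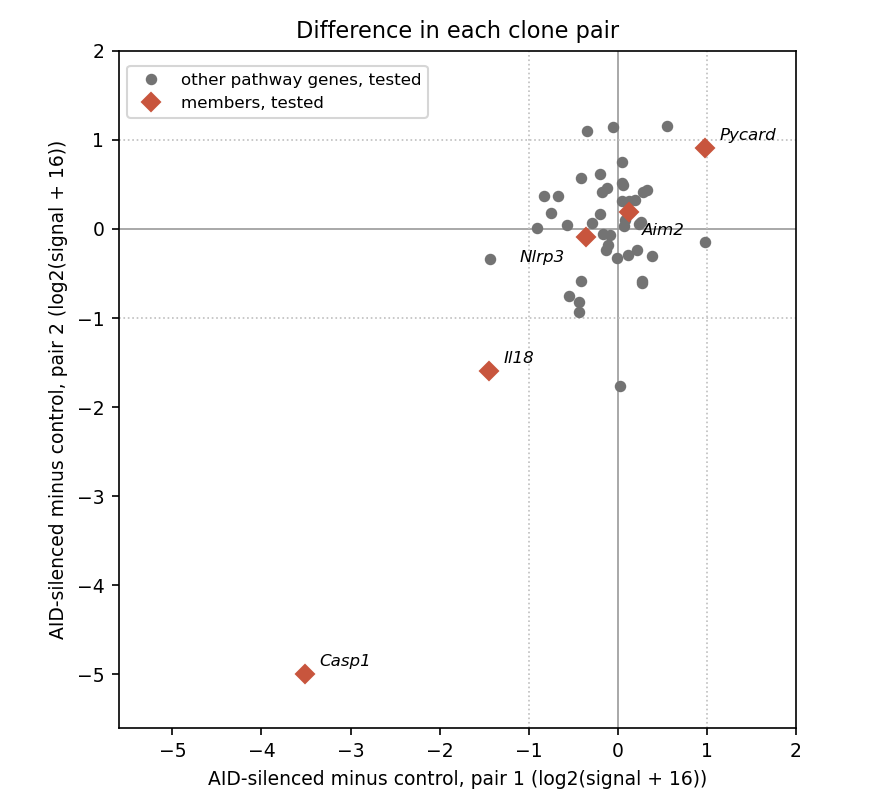
Difference between the AID-silenced and the control clone on log2(signal + 16) in pair 1 (x axis) and pair 2 (y axis), 1 point per tested gene, for the 5 tested members (red diamonds) and 43 other tested pathway genes (grey). Dotted lines mark 2-fold. Casp1 at −3.51 and −5.00 and Il18 at −1.45 and −1.60 lie beyond them in both pairs, and Pycard lies just inside at 0.98 and 0.91. Casp1 and Il18 were picked for this difference.

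Across the 12 member probe sets, 4 were lower and 2 higher in both silenced clones, and 6 differed in direction between pairs. On the whole array 25.9% of probe sets were lower and 25.8% higher in both. The probe sets of Casp1 and Il18 were the 2 members at least 2-fold lower in both pairs, a class that held 0.744% of all 45037 probe sets. None was at least 2-fold higher in both (0.682% of all) or 2-fold apart in opposite directions (0.993% of all). Because Casp1 and Il18 were picked for this difference, their count is a description.

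In the limma fit over 22519 probe sets, 0 of the 5 tested members passed a Benjamini-Hochberg adjusted p of 0.05, where 0.00888% of all tested probe sets did. Adding the pair as a block again gave 0 of 5, against 0.0355%. At an unadjusted p under 0.05 the counts were 2 of 5 without and 3 of 5 with the block, and over all tested probe sets 3.49% and 7.63%. The 2 without the block were Casp1 and Il18, the genes that the set was chosen by, and the block added Pycard. All members were chosen with earlier results of these data known, so nothing is read from these counts. When the control clone of pair 1 was left out, Casp1 was the 1 member past the adjusted threshold, among 146 probe sets in all, or 0.648%. That fit has a single control array, assumed to vary like the 2 silenced clones, in which Casp1 lay below background, and its call is no support for a difference in Casp1. Without the control clone of pair 2 (0.231% of all passing), the silenced clone of pair 1 (0%) or that of pair 2 (0.00888%), 0 of the 5 members passed.

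The difference between the pairs does not enter the choice of the members. Its test is read for the 3 tested members above the background reference on all 4 arrays, Pycard, Aim2 and Nlrp3, a restriction made after the values had been seen. In a limma fit with group and pair as terms, 0 of these 3 passed an adjusted p of 0.05 for pair 2 against pair 1, against 0.0178% of tested probe sets, and 2 reached an unadjusted p under 0.05, against 15.8%. Pycard was lower in pair 2 by −0.98 ± 0.16 (SE, limma adjusted p = 0.116), with almost the same difference in controls, −0.94, as in silenced clones, −1.02. Aim2 was lower in pair 2 by −0.93 ± 0.36 (SE, limma adjusted p = 0.281), at −0.96 and −0.91. Nlrp3 differed by 0.31 ± 0.39 (SE, limma adjusted p = 0.736). For each of these 3 the pair difference was at least as large as the mean difference between groups, and for Nlrp3 both were smaller than their errors. Casp1 and Il18 had a signal clear of background in the controls only, where pair 2 was higher by 2.48 and 0.22, and these differences within the controls were not tested. The fit also covered both genes. Over all 5 tested members 0 passed the adjusted threshold and 3 reached an unadjusted p under 0.05. Its values for Casp1 and Il18 average in silenced clones near or below background and are not read.

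The rest of the pathway was followed in 6 lists of 88 genes, chosen like the members with earlier results of these data known. Of these, 73 had a probe set, 15 were not analysed here, and 43 were bright enough to be tested, at the brightest probe set of each gene. Of the genes named from these lists, P2rx7, Il1rn, Traf6, Casp6, Casp9, Chmp3 and Vps4b have further probe sets that did not all share the directions given. In the limma fit 0 of 43 passed an adjusted p of 0.05 in either direction, with or without the pair as a block, against 0.0191% and 0.0573% of all 10475 tested genes. An unadjusted p under 0.05 was reached by 1 of 43, against 3.89% of all. In both silenced clones 13 were higher and 10 lower, or 30.2% and 23.3%, and 20 differed in direction, where 26.7% of all tested genes were higher and 27.5% lower. The median differences were −0.05 in pair 1 and 0.07 in pair 2, against 0.00 and −0.01 over all tested genes. None of the 43 was at least 2-fold lower in both pairs, as 0.449% of tested genes were, or at least 2-fold higher, as 0.563% were. Among list genes too dim to be tested, Gbp3 was at least 2-fold lower in both pairs, at −1.77 and −1.28. Cgas was at least 2-fold higher, at 1.28 and 1.07. The 2-fold counts of the members took in such dim probe sets.

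Among other sensors, 2 of 3 tested were higher in both silenced clones and 1 differed in direction. Nlrc5, better known as the transactivator of MHC class I genes, had signals of 578 and 188 in the controls and 852 and 439 in the silenced clones (mean difference 0.85 ± 0.57, SE). Naip2, which in mouse recognises bacterial rod proteins for Nlrc4, had 364 and 205 against 402 and 259 (0.22 ± 0.39). The Naip genes are close paralogues, and how far this probe set separates them was not tested.

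Of 13 tested activators and regulators, 3 were higher and 4 lower in both silenced clones. Txnip, an arrestin-like protein that binds thioredoxin and has been linked to Nlrp3 activation, was the 1 gene with an unadjusted p under 0.05. Its signals were 1907 and 2510 in the controls and 1403 and 1309 in the silenced clones, a mean difference of −0.68 ± 0.24 (SE, limma adjusted p = 0.9996). P2rx7, the ATP-gated channel whose opening triggers Nlrp3, had 97.0 and 60.2 against 25.8 and 44.1 (−0.89 ± 0.41), the 25.8 being below the background reference of its array, and 1 of its 3 probe sets had these directions. Irf2, a transcription factor known to drive Gsdmd, had 374 and 218 against 271 and 116 (−0.63 ± 0.47). Irf1, its interferon-induced relative, had 721 and 538 against 754 and 764 (0.28 ± 0.27). All 4 had a limma adjusted p of 0.9996.

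Of 9 tested signalling genes of the interleukin 1 family, 3 were higher and 1 lower in both silenced clones, and 5 differed in direction. The 1 lower gene was Traf6, the ubiquitin ligase downstream of interleukin 1 and interleukin 18 receptors, with signals of 384 and 401 in the controls and 257 and 232 in the silenced clones (−0.65 ± 0.28, SE). Myd88, the adaptor of the same receptors, differed by 0.17 ± 0.23, Sigirr, an inhibitory receptor, by 0.09 ± 0.31, and Il1rn, the receptor antagonist, by 0.28 ± 0.41. Both interleukin 18 receptor genes, Il18r1 and Il18rap, were too dim to be tested, with signals of 4.1 to 8.5 for Il18r1. Il18rap had 9.3 and 3.2 in the controls and 6.6 and 50.4 in the silenced clones, the last above the background reference of 39.9, at the brighter of 2 probe sets.

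Other caspases and their adaptors were all bright enough to be tested, 8 of 8 measured, with 3 higher in both silenced clones and 2 lower. Casp8, the initiator of death receptor apoptosis, had 3128 and 2496 in the controls and 3928 and 3390 in the silenced clones (0.38 ± 0.22, SE). Casp9, the initiator of the mitochondrial route, differed by 0.35 ± 0.30, Casp6, an executioner, by 0.26 ± 0.31, and Casp2 by −0.18 ± 0.21. The highest and lowest of these means were far smaller than the Casp1 difference, for which Casp1 was picked.

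Among gasdermins and genes of membrane rupture and repair, 1 of 7 tested was higher and 3 lower in both. Gsdme, another pore-forming gasdermin, had signals of 1206 and 1230 in the controls and 904 and 813 in the silenced clones (−0.50 ± 0.23, SE). Vps4b, Chmp3 and Chmp2a, parts of the ESCRT machinery that reseals membranes, differed by −0.17 ± 0.20, −0.08 ± 0.27 and 0.05 ± 0.30. Of the inhibitors 3 were tested, 1 being higher in both clones. This was Card19, a mitochondrial protein with a caspase recruitment domain, at 0.40 ± 0.43.

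**Figure D3:**
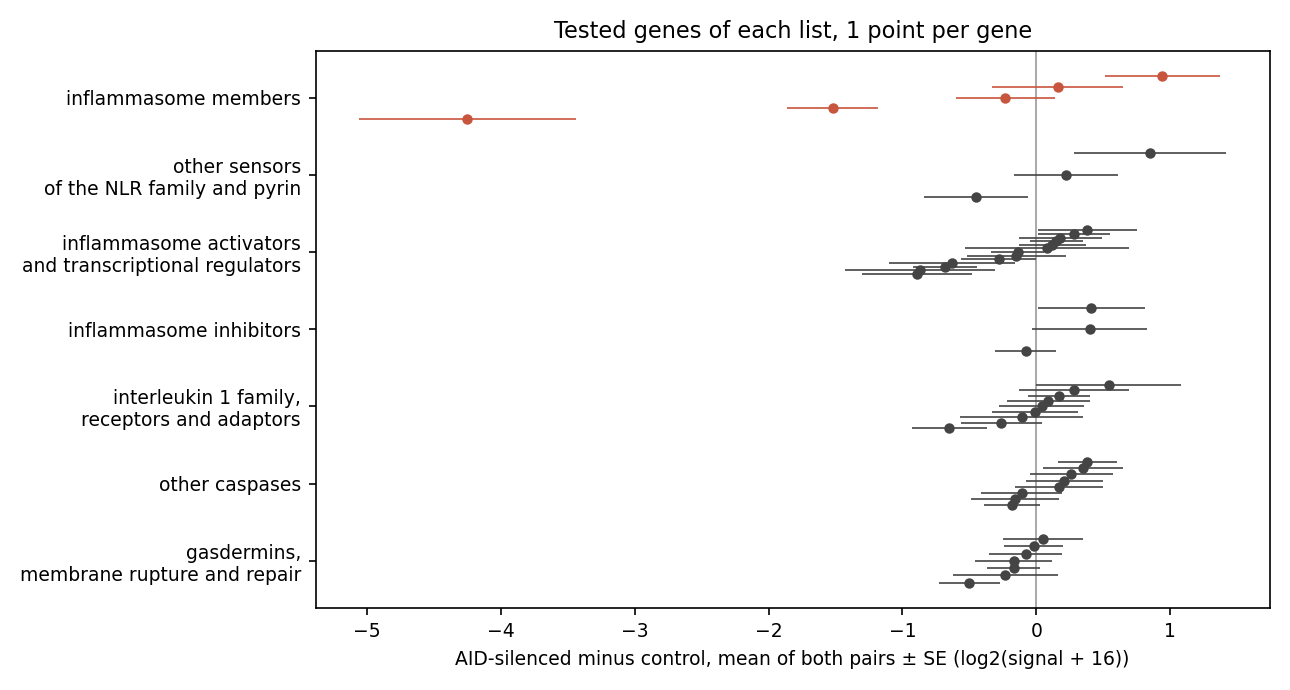
Mean difference between silenced clones and controls on log2(signal + 16) for every tested gene of the member list (red) and the 6 further lists (dark grey), with bars of 1 SE from limma (n = 2 per group). Casp1 at −4.25 and Il18 at −1.52 lie to the left of all 43 other tested pathway genes, which lie between −0.89 and 0.85. Both were picked for this difference, so their place is a description. Genes too dim to be tested, such as Gbp3 at −1.53 and Cgas at 1.18, are not shown.

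Casp1, Casp4, Casp12 and Il18 all lie on chromosome 9, the caspases side by side and Il18 elsewhere on it, so genes next to them were examined. Of the 10 measured genes nearest the caspase cluster, 6 were tested, with 2 lower and 2 higher in both silenced clones and mean differences from −0.56 to 0.34. Gria4, a glutamate receptor subunit next to Casp1, had signals of 49.2 and 51.0 in the controls against 55.1 and 51.7. These lay close to the background reference, and 1 of its 3 probe sets had these directions. Msantd4, the next gene, had 1111 and 1193 against 996 and 1176. Dync2h1, a motor of ciliary transport, was level in pair 1 at 0.04 and lower in pair 2 by −1.16.

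Around Il18, 6 of 10 measured neighbours were tested, 2 being lower and none higher in both silenced clones, with mean differences from −0.61 to 0.28. The median of these 6 was −0.10 in pair 1 and −0.52 in pair 2. Sdhd, a subunit of succinate dehydrogenase, had signals of 5561 and 9912 in the controls against 6156 and 8721, and 1 of its 2 probe sets had these directions. Timm8b, a mitochondrial import chaperone, had 2590 and 2754 against 2006 and 1865 (−0.46 ± 0.21, SE). Pih1d2 differed by −0.24 and −0.98. Tex12, a meiotic gene adjacent to Il18 that was too dim to be tested, was higher in both silenced clones, with 3.0 and 13.6 against 52.5 and 41.1. None of the 12 tested neighbours was 2-fold lower in both pairs. On the whole chromosome 579 genes were tested, 152 lower and 155 higher in both silenced clones, with medians of 0.15 in pair 1 and −0.15 in pair 2. Of these, 3 were at least 2-fold lower in both, Casp1 and Il18 among them, and 4 at least 2-fold higher. Over all tested genes the shares were 0.449% and 0.563%.

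**Figure D4:**
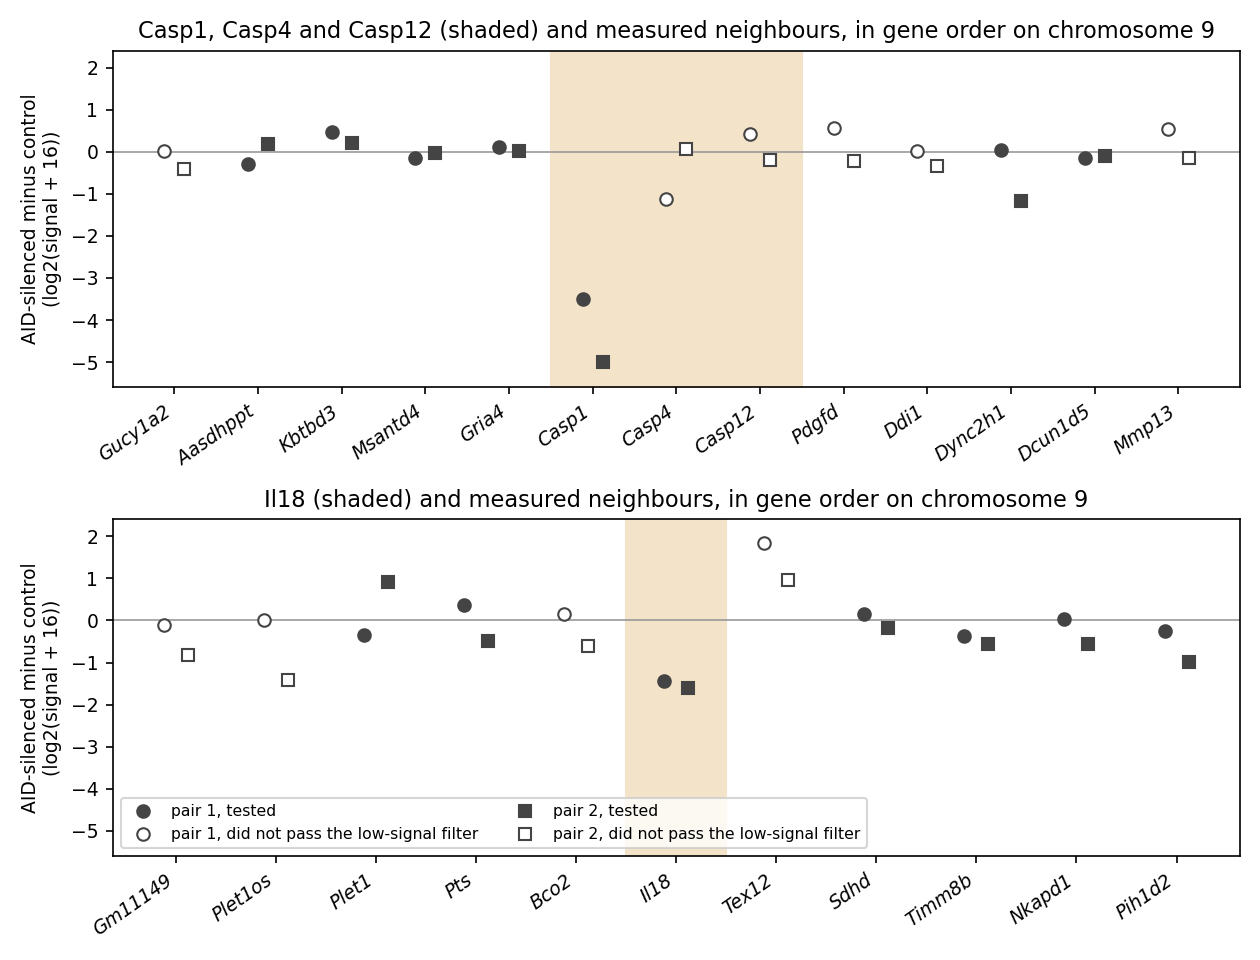
Difference between silenced clones and controls on log2(signal + 16) in pair 1 (circles) and pair 2 (squares) for the members on chromosome 9 (shaded) and the 5 nearest measured genes on each side, in gene order. Filled points were tested and open points did not pass the low-signal filter. Casp1 at −3.51 and −5.00 and Il18 at −1.45 and −1.60 stand below the tested neighbours of each, whose means lie between −0.61 and 0.34. Casp1 and Il18 were picked for this difference, so their place is a description.

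The genes most like Casp1 and Il18 over the 4 arrays were found by the Euclidean distance between log2 values centred on each gene's mean, among tested genes. Nearest to Casp1 were Pgam2, the muscle phosphoglycerate mutase (distance 1.01), Grhl2, an epithelial transcription factor (1.23), Ank, a pyrophosphate transporter (1.65), Dctd, a dCMP deaminase (1.77), and Klhl5 (1.90). Grhl2 had signals of 265 and 3242 in the controls and 65.8 and 84.0 in the silenced clones, the control of pair 2 being the higher, as for Casp1, and 2 of its 4 probe sets had these directions. Nearest to Il18 were Ankrd37, a hypoxia-induced gene (0.12), Tln2, encoding talin 2 (0.22), Aif1l (0.24), Rapgef5 (0.37) and Cgn, encoding cingulin (0.44). Ankrd37 had 310 and 398 against 109 and 107. Casp1 and Il18 lay 3.23 apart, with Il18 at rank 35 by likeness to Casp1 but Casp1 at rank 10360 by likeness to Il18. The distances from Casp1 rest partly on its silenced signals of 2.4 and 20.5, which lay below background. Il18, Dctd, Aif1l and Rapgef5 were above the background reference on only 3 arrays. For Tln2 and Rapgef5, 2 of 3 probe sets shared the directions of the brightest. With 4 arrays and 10475 genes such likeness describes these clones and no more.

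The labelled cell type was checked with 8 plasma cell markers, which were above the background reference on all 4 arrays. Their summed signal was 98493 and 119924 in the controls of pairs 1 and 2 and 107624 and 130787 in the silenced clones. The transcription factor gene Xbp1, for example, ranged from 27280 to 38930. Inflammasome genes are typical of myeloid cells, so markers of these were summed as well. The 10 macrophage and monocyte markers gave 2507 and 1340 in the controls and 1552 and 1230.5 in the silenced clones, with only Csf1r and Cd68 above the reference on all 4 arrays and Cd14 and Itgam below it on all 4. Marco, a scavenger receptor, contributed 1230 in the control clone of pair 1 and 3.6 to 8.5 in the other clones. Without it the sums were 1277 and 1336 against 1544 and 1227 in the silenced clones, higher in pair 1 and lower in pair 2. Marco was left out after its values had been seen, and the part of these markers in the results was not tested. The 5 measured neutrophil markers gave 143 and 784 in the controls against 229 and 327, mostly through Mpo, and 2 of them were below the reference on all 4 arrays. The 5 measured dendritic cell markers gave 424 and 192 against 429 and 193. The 5 T cell markers gave 172 and 203 against 80.0 and 145, and the 6 fibroblast markers 162 and 192 against 218 and 174. The T cell sum was lower in both silenced clones, with Cd4 and Cd3d below the reference on all 4 arrays, and its part in the results was not tested.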

How the data were processed

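RNA from 4 J558 clones was measured on 1 Affymetrix array each. The deposited intensities, 1 per probe set, come from MAS5 according to the submitters' processing notes. All arrays had a 2% trimmed mean of 500, so no further scaling was applied, and detection calls are not given in the sources used here. Of 45101 probe sets, 64 Affymetrix controls were left out. The upper 0.5 by mean log2(signal + 16), 22519 probe sets, entered limma 3.58.1 (R 4.3.3, statmod 1.5.0; lmFit, eBayes with trended and robust prior), called at a Benjamini-Hochberg adjusted p of 0.05. Both limma fits were tested on simulated data. The simulated variances were drawn from each fit's own prior, a choice made after other simulated spreads had given poorer recovery or more false calls, so the test does not show how the fits behave on noisier or correlated data. Figures were drawn with matplotlib 3.10.9.

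Groups were compared on all 4 arrays, without the pair as a term and, as an alternative, with it as a block. The series text presents the clones as pairs used for extraction and hybridisation. The shift from pair 1 to pair 2 in controls correlated with that in AID-silenced clones over the tested probe sets (r = 0.306), which served as a check. Nothing says whether clones were cultured separately more than once. The p-values measure the spread between these single clones, in which clone and technical differences cannot be told apart. Without the pair as a term, the SE also takes in the difference between pairs. The number of arrays limits the precision.

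Symbols came from the platform annotation. Chromosomes and gene order came from a GRCm38.p6 gene table, to which 34754 probe sets were matched. A listed gene stands for its brightest probe set. The members and lists were chosen with earlier results of these data known. Named genes were all members, up to 4 genes per list with the largest mean difference among tested genes of the same sign in both pairs, the 5 genes most like Casp1 and Il18, and their 5 measured neighbours on each side. Il18r1, Il18rap, single markers and the genes of the closing section were chosen for naming after seeing their values. The promoter motifs were chosen with these results known, and the interferon and NF-kB motifs were shortened after the windows had been searched once, which changed the match counts. The level of the silenced gene is not reported here.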

Additional observations from a re-analysis of the deposited data

How the results depend on the processing

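Casp1 and Il18 kept their direction under all 11 alternatives that tested them (the stricter filter kept only Pycard), with log2 differences from −5.79 to −2.90 and from −1.86 to −0.98. Both extremes came from the pseudocounts of 1 and 64. Pycard stayed higher in all 12 (0.43 to 1.45) and Nlrp3 lower in all 11 (−0.45 to −0.01), while Aim2 changed sign in 2 of 11 (−0.32 to 0.64). Of the 12 member probe sets, 1 instead of 2 was at least 2-fold lower in both pairs with a pseudocount of 64. Over all probe sets, 2 were called between groups, 8 with the pair as a replicate block, and 0 with the plain limma prior (836 at an unadjusted p under 0.05). Leaving out 1 clone gave between 0 and 146, the 146 without the control clone of pair 1 and the 0 without the AID-silenced clone of pair 1 (589 at an unadjusted p under 0.05). Between pairs, 4 were called, 7 with quantile normalisation, 11 without the low-signal filter, and 0 both without the group term (3037 at an unadjusted p under 0.05) and with the plain prior (2888). With quantile normalisation 3 of the 7 were higher in pair 2, and without the filter 3 of the 11, against 3 of 4. The cause was not tested. Apart from Casp1 without the control clone of pair 1, no member was called between groups under any setting. No pathway gene was called under any of its 3 alternatives. The pair contrast without 1 clone leaves no residual degrees of freedom and was not run. MAS5 signals near 40 do not separate expression from background, which limits Casp4, Casp12, Gsdmd, Il1b, Nlrp3, Aim2 in pair 2 and the AID-silenced levels of Casp1 and Il18.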

Other observations

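Marco and Irf8 shared with Gsdmd a signal above background in the control clone of pair 1 only. Marco, a scavenger receptor of macrophages, had a signal of 1230 there and 8.5, 3.6 and 3.9 in the silenced clone of pair 1, the control clone of pair 2 and the silenced clone of pair 2. Irf8, a transcription factor of B cells and myeloid cells, had 142 there and 18.9, 21.0 and 13.0 in the same order. These values are those of the brightest probe set, and in each case 1 of 2 probe sets had these directions. Of the listed genes, Nlrx1 and Cd209a had the same pattern nearer to background, with 53.3 and 49.5 in the control clone of pair 1. How common the pattern is on the whole array was not counted. The part of these genes in the Gsdmd value was not tested.

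Some pathway genes too dim to be tested differed in the same direction in both pairs. Gbp3, an interferon-induced guanylate-binding protein, had signals of 58.2 and 56.5 in the controls and 5.7 and 13.9 in the silenced clones. Cgas, the DNA sensor upstream of Sting1, had 9.7 and 16.9 in the controls and 46.5 and 53.3 in the silenced clones, and both of its probe sets had these directions. Nlrc3, a regulatory NLR protein, had 8.5 and 23.1 against 49.7 and 49.4 at the brighter of 2 probe sets. Each of these lay below the background reference in 1 group, so its fold is not known.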
